A study of Mus musculus with 8 samples.

Results

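Aldehydes, alcohols and carbonyl compounds were followed through the 46 genes whose symbol starts with Aldh, Akr, Adh or Cbr and a number, except Aldh18a1, among 19937 genes named by a single symbol on the arrays. The 46 comprise 20 Aldh, 15 Akr, 7 Adh and 4 Cbr genes, and each was read from 1 probe set, the one with the highest mean. They were measured in NMuMG cells (subclone NMuMG/E9), an untransformed mouse mammary gland epithelial line that undergoes an epithelial to mesenchymal transition (EMT) under TGFβ, on 8 Affymetrix whole-transcript arrays. The cells had received control siRNA (siControl) or a pool of 2 siRNAs against Klf4, a zinc-finger transcription factor (siKlf4), and were kept without TGFβ or with TGFβ at 2 ng/ml for 2 days. Each of the 4 groups had 2 arrays. The cells are 1 subclone, and separate transfections are not stated for the 2 arrays of a group, so the p-values cover only the spread within array pairs, which could be technical.

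Aldehyde dehydrogenases oxidise reactive aldehydes to acids with NAD or NADP, and alcohol dehydrogenases interconvert alcohols and aldehydes. Aldo-keto reductases and carbonyl reductases run the opposite way, reducing aldehydes and ketones to alcohols, and several of the Akr1c enzymes act on steroid hormones. In epithelia these families are known for clearing products of lipid peroxidation and for making retinoic acid, which takes an alcohol dehydrogenase or retinol dehydrogenase step followed by an Aldh1a step, and high aldehyde dehydrogenase activity is widely used to enrich stem-like mammary cells.

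Many of the genes lie close together in the RefSeq mouse annotation, with no more than 2 other protein-coding genes between them. Akr1c14, Akr1c18, Akr1c13, Akr1c19, Akr1c12, Akr1c6, Akr1c20, Akr1c21 and Akr1e1 form a run of 9, 6 of the Adh genes form another, and Aldh1a1 and Aldh1a7, Aldh3a1 and Aldh3a2, Aldh3b1, Aldh3b3 and Aldh3b2, Cbr1 and Cbr3, and Akr1b8 and Akr1b10 are also neighbours. The 250 bases before the start site are shown for 2 of these neighbourhoods, Aldh1a and Akr1c, because they hold the 3 members that differed most between siKlf4 and siControl without TGFβ, and because neighbours moved alike in the former and apart in the latter. Sequences are from RefSeq (GRCm38.p6), 5′ to 3′ on the strand of the gene. Capitals mark matches on either strand to TGANNNNGC or to CACCC. TGANNNNGC is a loose form of the core of the antioxidant response element, so a match need not be such an element. CACCC is the box known to be bound by Krüppel-like factors. Of the 2 Aldh1a1 start sites in the table, the second is shown.
Aldh1a1 (chr19:20601718-20601967, + strand): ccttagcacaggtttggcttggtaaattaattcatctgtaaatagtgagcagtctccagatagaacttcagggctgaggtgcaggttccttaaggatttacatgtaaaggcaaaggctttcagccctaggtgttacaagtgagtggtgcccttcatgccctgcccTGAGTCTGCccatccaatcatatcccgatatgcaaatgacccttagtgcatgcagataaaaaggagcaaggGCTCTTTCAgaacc
Aldh1a7 (chr19:20727557-20727806, - strand): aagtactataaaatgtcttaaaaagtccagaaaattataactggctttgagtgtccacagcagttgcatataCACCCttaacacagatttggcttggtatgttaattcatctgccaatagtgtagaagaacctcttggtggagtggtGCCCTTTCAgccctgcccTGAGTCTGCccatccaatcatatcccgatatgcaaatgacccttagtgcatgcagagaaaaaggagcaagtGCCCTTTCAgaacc
Akr1c12 (chr13:4279400-4279649, - strand): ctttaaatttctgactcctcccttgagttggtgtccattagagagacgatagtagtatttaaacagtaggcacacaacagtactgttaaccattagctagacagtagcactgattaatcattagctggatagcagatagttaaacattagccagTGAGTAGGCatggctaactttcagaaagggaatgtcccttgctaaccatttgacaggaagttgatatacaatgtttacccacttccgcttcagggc
Akr1c13 (chr13:4190937-4191186, + strand): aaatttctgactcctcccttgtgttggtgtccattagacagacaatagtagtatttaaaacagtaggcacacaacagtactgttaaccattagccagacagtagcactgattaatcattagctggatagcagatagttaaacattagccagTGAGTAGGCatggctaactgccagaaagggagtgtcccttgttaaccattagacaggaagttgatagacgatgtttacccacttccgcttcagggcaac
Akr1c18 (chr13:4150647-4150896, - strand): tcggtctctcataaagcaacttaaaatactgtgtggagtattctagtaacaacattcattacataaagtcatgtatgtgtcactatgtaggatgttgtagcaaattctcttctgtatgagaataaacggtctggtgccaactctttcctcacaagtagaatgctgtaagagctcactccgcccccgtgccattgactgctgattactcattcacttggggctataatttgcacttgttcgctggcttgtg
Akr1c19 (chr13:4233490-4233739, + strand): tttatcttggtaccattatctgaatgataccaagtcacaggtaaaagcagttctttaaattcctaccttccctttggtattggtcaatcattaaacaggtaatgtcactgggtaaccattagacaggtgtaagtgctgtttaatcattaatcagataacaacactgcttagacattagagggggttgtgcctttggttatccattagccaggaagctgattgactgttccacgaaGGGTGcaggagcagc

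Akr1c12 and Akr1c13 were 92.5% identical over this window in a global alignment, and Aldh1a1 and Aldh1a7 65.7%, beside a median of 45.1% over the 780 pairs of member windows. Akr1c19 was 56.9% identical to Akr1c12, and Akr1c18 was 52.1% identical to Akr1c14. Upstream windows were found for 37 of the 46 genes. TGANNNNGC occurred in 16 of the 40 windows of these 37 genes and in 35.2% of all 32851 mouse promoters of this length. CACCC occurred in 21 of the 40 and in 52% of all. By gene, that is 14 and 21 of 37. The AP-1 site TGANTCA occurred in Adh7 and in the first Aldh1a1 window, and in 6.75% of all promoters. TGANNNNGC matches were present before Aldh1a1, Aldh1a7, Akr1c12 and Akr1c13. The windows of Akr1c18 and Akr1c19 held no such match, and that of Akr1c19 held 1 CACCC match.

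Klf4 itself had log2 values of 8.60 and 8.43 on the siControl arrays and 8.03 and 7.91 on the siKlf4 arrays, a 1.46-fold lower signal that passed the test (-0.54 ± 0.0987, adjusted p = 0.00369 in limma). With TGFβ, the values were 7.46 and 7.46 in siControl and 7.43 and 7.24 in siKlf4. This difference (-0.13 ± 0.0987) did not pass (adjusted p = 0.444 in limma). These are signals of 1 probe set. The paper reports efficient loss of Klf4 with this siRNA pool in NMuMG cells. It measured Klf4 by immunoblotting and quantitative RT-PCR, without and with TGFβ. Differences are given throughout on the log2 scale as siKlf4 minus siControl, or TGFβ minus none, with the standard error of the fit. A gene was called at an adjusted p under 0.05 over all 19937 genes. Array medians lay between 4.9 and 5.0. Of 6 epithelial markers, 5 lay above the dimmest 30% of genes. Epcam lay within it at a mean of 3.98. The summed linear level of these markers was 21500 to 22300 on the siControl arrays and 23800 to 24500 on the siKlf4 arrays, both ranges covering arrays without and with TGFβ. Krt7, Krt8 and Krt18 were called higher and Krt19 lower (-0.99 and -1.04) in both siKlf4 comparisons. With TGFβ against none, 0 of the 6 were called in siControl. In siKlf4 cells, Cdh1 was called higher with TGFβ (0.67) and Krt7 lower (-0.36). Summed fibroblast markers ranged from 143 to 171 in siControl and from 210 to 286 in siKlf4, with 2 of 5 in the dimmest 30%. Col1a1 was called higher in both siKlf4 comparisons (1.13 and 0.65) and Pdgfrb without TGFβ (0.73). Pdgfrb was called lower with TGFβ against none in siKlf4 cells (-0.58). Myoepithelial markers ranged from 143 to 170 and from 216 to 276, with Acta2 called higher and Krt5 lower in both siKlf4 comparisons. Of 3 leukocyte markers, Cd68 alone was called, higher in siKlf4 with TGFβ and lower with TGFβ in both siRNA groups. Endothelial, adipocyte and hepatocyte markers gave no call except Ttr, lower in siKlf4 with TGFβ. The cultures are described as 1 subclone of an epithelial line, with no other cell type named. What these marker differences rest on, and their bearing on the results below, was not tested.

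Aldh1a1, Aldh3a1, Aldh4a1, Adh7, Akr1c18 and Akr1c19 were among the genes that were lower in siKlf4 both without and with TGFβ. Akr1c19 was 9.43-fold lower without TGFβ, Akr1c18 7.08-fold, Aldh1a1 6.07-fold, Aldh3a1 4.39-fold and Adh7 4.13-fold. The siKlf4 mean of Akr1c18 in this comparison, 4.13, lay under 4.18, the level of the dimmest 30% of genes. Without TGFβ, 16 of the 46 genes were called, 13 lower and 3 higher, where 19.7% of all genes were called, 9.71% lower and 9.98% higher. With TGFβ, 21 were called, 19 lower and 2 higher, where the shares of all genes were 24.2% in either direction, 11.9% lower and 12.3% higher. Of the members, 28.3% were lower and 6.52% higher without TGFβ, and 41.3% and 4.35% with it. Decreases of at least 1 on the log2 scale were called for 9 members without TGFβ, beside 1.45% of all genes, and for 8 with TGFβ, beside 2.76%. The median difference over the 46 was -0.10 without TGFβ and -0.19 with it, against 0.00 and -0.03 over all genes. Fewer cells that express a gene and less of its RNA per cell cannot be told apart in these bulk samples.

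**Figure D1:**
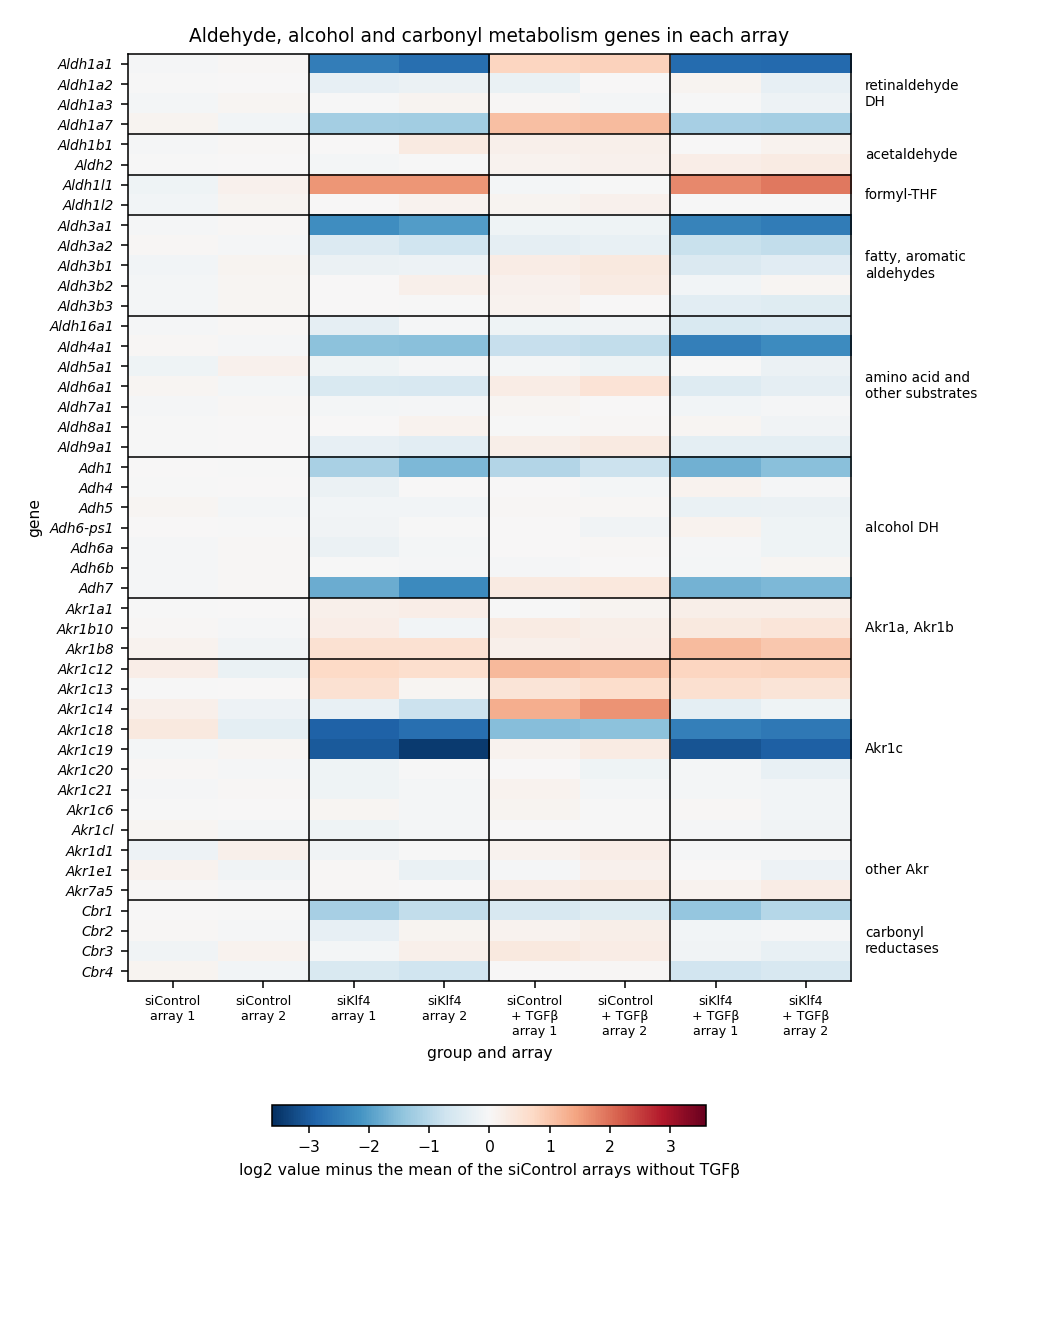
Log2 value of each of the 46 genes on each of the 8 arrays minus its mean over the 2 siControl arrays without TGFβ, with genes in rows grouped by role and arrays in columns. The siKlf4 columns are dark blue for Aldh1a1, Aldh3a1, Adh7, Akr1c18 and Akr1c19 and red for Aldh1l1, and the siControl columns with TGFβ are red for Aldh1a1, Aldh1a7, Akr1c12 and Akr1c14.

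The same 13 genes were lower in both comparisons, namely Adh1, Adh7, Akr1c18, Akr1c19, Aldh1a1, Aldh1a7, Aldh3a1, Aldh3a2, Aldh4a1, Aldh6a1, Aldh9a1, Cbr1 and Cbr4. Akr1b8 and Aldh1l1 were higher in both. A further 6 passed as lower with TGFβ alone (Adh5, Akr1c14, Aldh16a1, Aldh3b1, Aldh3b3 and Cbr3), Akr1c12 passed as higher without TGFβ alone, and 24 were called in neither. Members called in 1 comparison alone are not thereby shown to differ between the comparisons, and the test of that difference is given further on. Of the 46, 14 had a mean of at most 4.18, the level of the dimmest 30% of genes, and of these Cbr3 with TGFβ was the only one called. Among the 32 brighter members, 16 were called without TGFβ and 20 with it. The share called among all brighter genes was not taken, so these counts have no like background. The median difference of the brighter members was -0.15 without TGFβ and -0.43 with it, against 0.01 and -0.03 over all brighter genes.

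The Aldh1a subfamily holds the retinaldehyde dehydrogenases Aldh1a1, Aldh1a2 and Aldh1a3, which make retinoic acid, and Aldh1a7, a close relative of Aldh1a1. Aldh1a1 read 8.33 and 8.40 in siControl, 5.88 and 5.65 in siKlf4. After TGFβ the siControl arrays read 9.12 and 9.20 and the siKlf4 arrays 5.61 and 5.56. Both siKlf4 groups lay far below both siControl groups, without overlap. The difference was -2.60 ± 0.094 without TGFβ (adjusted p = 6.55e-07) and -3.58 ± 0.094 with it (adjusted p = 1.7e-07), a 12-fold lower signal. Aldh1a7 read 5.34 and 5.14, then 4.03 and 3.98, in siControl and siKlf4 without TGFβ. With TGFβ it read 6.32 and 6.39 in siControl and 4.03 and 4.01 in siKlf4. The siControl arrays were again above the siKlf4 arrays in each pair, and the 4 siKlf4 values lay under 4.18, in the range of the dimmest genes. Its differences were -1.24 ± 0.0889 (adjusted p = 1.74e-05) and -2.33 ± 0.0889 (adjusted p = 4.77e-07). Because Aldh1a1 and Aldh1a7 are close relatives, their probe sets may share signal, which was not tested. Aldh1a2 was dim on all arrays, at 3.56 to 3.97, and its differences of -0.26 and 0.02 did not pass. Aldh1a3 read 4.76 to 5.04, with differences of 0.05 (95% interval -0.18 to 0.27) and -0.09 (-0.32 to 0.13), neither called.

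Aldh2, the mitochondrial enzyme that clears acetaldehyde, differed by -0.05 (95% interval -0.22 to 0.12) without TGFβ and by 0.12 (-0.05 to 0.29) with it, and Aldh1b1 by 0.17 and -0.12, none of them called. The formyltetrahydrofolate dehydrogenases act in folate metabolism. Of this pair, the cytosolic Aldh1l1 read 5.08 and 5.37 in siControl and 6.81 and 6.82 in siKlf4 without TGFβ. With TGFβ it read 5.17 and 5.20 in siControl and 6.96 and 7.13 in siKlf4. All siKlf4 arrays were above all siControl arrays, opposite to most called members. The differences were 1.59 ± 0.108 (adjusted p = 1.27e-05) and 1.86 ± 0.108 (adjusted p = 3.04e-06), or 3-fold and 3.63-fold higher. The mitochondrial Aldh1l2 was dim and not called, at 0.08 and -0.13.

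Enzymes of fatty and aromatic aldehydes were lower in 2 of 5 cases without TGFβ and in 4 of 5 with it. Aldh3a1, which oxidises aromatic and lipid-derived aldehydes and is abundant in the cornea, read 7.23 and 7.32 in siControl and 5.02 and 5.25 in siKlf4. With TGFβ it read 7.12 and 7.11 against 4.87 and 4.77. The 2 groups were wide apart in both pairs, with differences of -2.13 ± 0.0962 (adjusted p = 1.5e-06) and -2.30 ± 0.0962 (adjusted p = 7.03e-07). Its neighbour Aldh3a2, the fatty aldehyde dehydrogenase, differed less, by -0.61 ± 0.0955 (adjusted p = 0.00162) and -0.55 ± 0.0955 (adjusted p = 0.00223). Aldh3b1 differed by -0.19 without TGFβ, which was not called, and by -0.77 with it (adjusted p = 0.000207). Aldh3b3 likewise differed by -0.01 and -0.47, the second called, and Aldh3b2 by 0.09 and -0.24, neither called.

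Among dehydrogenases of amino acid and other specific aldehydes, Aldh4a1, which completes the breakdown of proline to glutamate, read 8.55 and 8.45 in siControl and 7.01 and 7.0 in siKlf4. After TGFβ the siControl arrays read 7.68 and 7.6 and the siKlf4 arrays 6.04 and 6.25. The 4 groups were stepped and did not overlap. siKlf4 differed from siControl by -1.50 ± 0.0919 in both comparisons (adjusted p = 7.05e-06 and 4.04e-06). Aldh6a1, of valine breakdown, was lower by smaller amounts, -0.56 and -0.77, and both were called. Aldh9a1, of carnitine synthesis, differed by -0.34 without TGFβ (adjusted p = 0.0167) and by -0.62 with it (adjusted p = 0.000437). The former call was lost without siControl array 1 (-0.35, adjusted p = 0.0502), siControl array 2 (-0.33, 0.0658) or siKlf4 array 2 (-0.28, 0.0899). Aldh16a1 was called with TGFβ, at -0.38 (adjusted p = 0.0228), a call lost without any 1 of the 4 arrays with TGFβ (adjusted p from 0.0797 to 0.131). Aldh5a1, Aldh7a1 and Aldh8a1, which serve the breakdown of gamma-aminobutyric acid, lysine and tryptophan, differed by -0.10 to 0.06 and were not called.

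**Figure D2:**
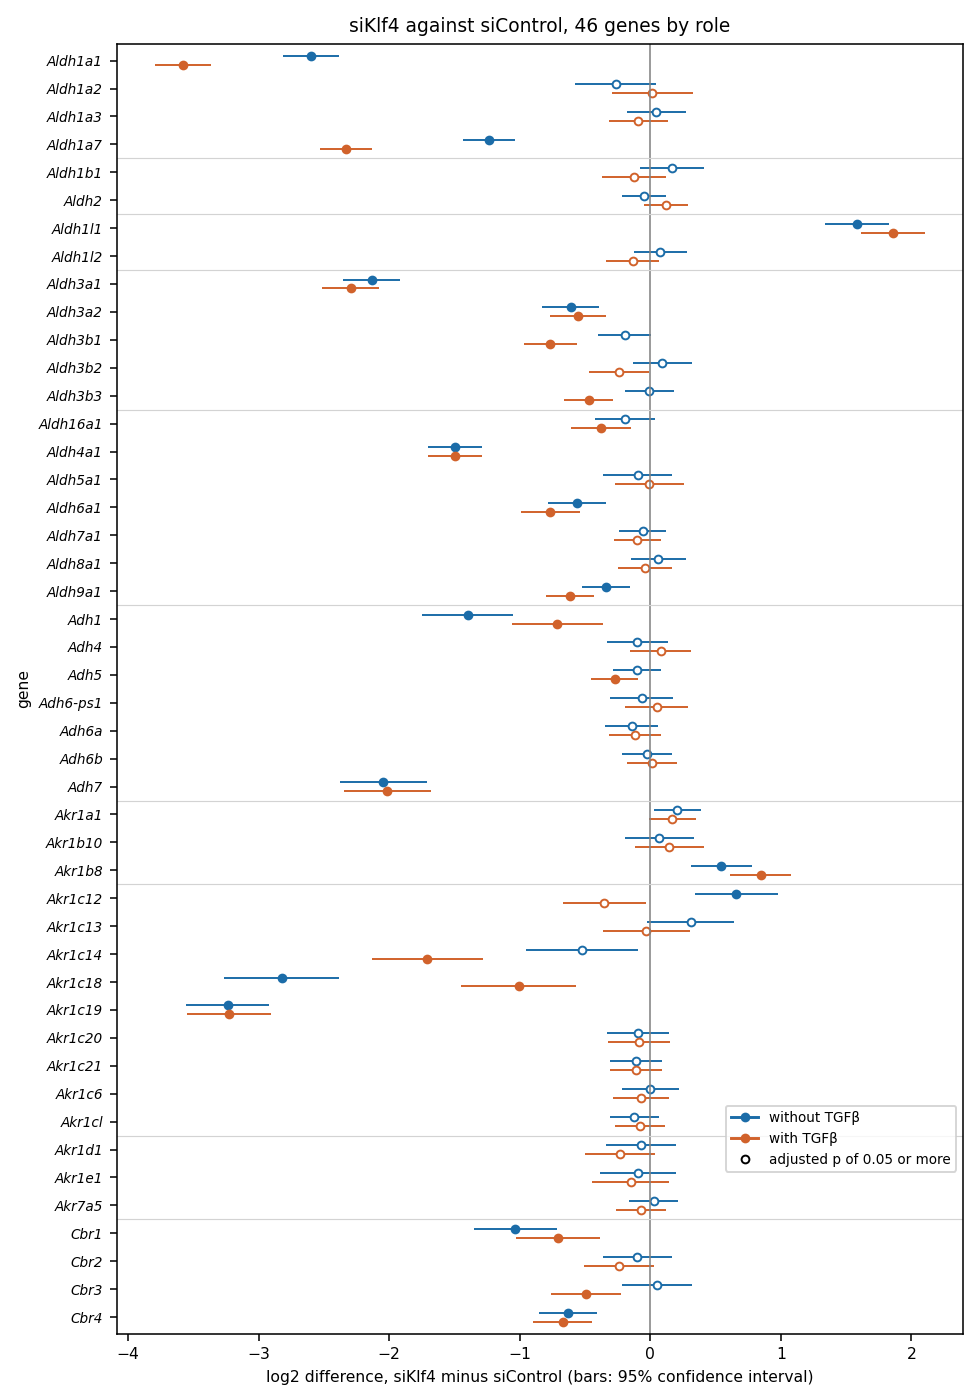
Log2 difference between siKlf4 and siControl for each of the 46 genes, without TGFβ (blue) and with TGFβ (orange), with 95% confidence intervals. Filled points passed an adjusted p of 0.05. Most filled points lie left of 0, down to -3.58 for Aldh1a1, and Aldh1l1, Akr1b8 and the point of Akr1c12 without TGFβ lie to the right.

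Of 7 alcohol dehydrogenases, the retinol- and ethanol-oxidising Adh7 and Adh1 were lower in both comparisons. Adh7 read 10.79 and 10.88 in siControl and 9.05 and 8.53 in siKlf4, and with TGFβ 11.15 and 11.22 against 9.12 and 9.22. No siKlf4 array reached a siControl array. The differences were -2.05 ± 0.147 (adjusted p = 1.74e-05) and -2.01 ± 0.147 (adjusted p = 1.11e-05). Adh1 read 6.69 and 6.66 in siControl against 5.5 and 5.06 in siKlf4. With TGFβ it read 5.63 and 5.91 against 4.94 and 5.18. The siControl level with TGFβ thus lay nearer to that of siKlf4. Adh1 differed by -1.40 ± 0.154 (adjusted p = 0.000203) and -0.71 ± 0.154 (adjusted p = 0.00811). The latter call was lost without siControl array 2 with TGFβ (-0.57) or without siKlf4 array 1 with TGFβ (-0.59). It was also lost in an analysis of variance with 1 mean per group (adjusted p = 0.0977). That alternative tested each contrast by a t-test without moderating the variance, and the study's own procedure was not rerun. Adh5, the formaldehyde dehydrogenase, differed by -0.10 without TGFβ, not called, and by -0.27 with it (adjusted p = 0.035), a call lost when any 1 of those 4 arrays was left out (adjusted p from 0.112 to 0.181). Adh4, Adh6a, Adh6b and Adh6-ps1 were all among the dimmest 30% of genes and gave no call.

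Akr1c genes moved in both directions. Of 9, 2 were lower and 1 higher without TGFβ, and 3 were lower with it. Akr1c19, a dehydrogenase of hydroxysteroids and related alcohols, read 8.17 and 8.28 in siControl and 5.21 and 4.77 in siKlf4. With TGFβ it read 8.34 and 8.52 against 5.13 and 5.28. The gap was almost the same in both pairs, at -3.24 ± 0.141 (adjusted p = 1.4e-06) and -3.23 ± 0.141 (adjusted p = 8.11e-07). Akr1c18, the hydroxysteroid dehydrogenase that inactivates progesterone, read 7.31 and 6.59 in siControl, 4.03 and 4.23 in siKlf4. After TGFβ the siControl arrays read 5.41 and 5.48 and the siKlf4 arrays 4.49 and 4.38. It was high in siControl without TGFβ, intermediate with TGFβ and low in both siKlf4 groups, where all 4 values lay near or under 4.18. The differences were -2.82 ± 0.195 (adjusted p = 1.42e-05) and -1.01 ± 0.195 (adjusted p = 0.00433). The latter did not pass in the analysis of variance (adjusted p = 0.0842).

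Akr1c14, another hydroxysteroid dehydrogenase, read 5.96 and 5.58 in siControl and 5.51 and 4.99 in siKlf4, and 7.08 and 7.39 against 5.43 and 5.62 with TGFβ. Its 2 siControl arrays with TGFβ stood above the other 6. The difference was -0.52 ± 0.188 without TGFβ (adjusted p = 0.092) and -1.71 ± 0.188 with it (adjusted p = 0.00014). The former passed when siKlf4 array 1 was left out (-0.78, adjusted p = 0.0246). Akr1c12 read 6.78 and 6.30 in siControl, 7.26 and 7.14 in siKlf4. After TGFβ the siControl arrays read 7.72 and 7.62 and the siKlf4 arrays 7.30 and 7.33. It was thus lowest in siControl without TGFβ and highest in siControl with TGFβ. Its difference was 0.66 ± 0.14 without TGFβ (adjusted p = 0.0089) and -0.35 ± 0.14 with it (adjusted p = 0.112). The former fell to 0.42 without siControl array 2, which still passed, and was not called without siKlf4 array 1 (0.60, adjusted p = 0.0557) or in the analysis of variance (adjusted p = 0.101). The Akr1c12 difference with TGFβ passed when either siControl array without TGFβ was left out (adjusted p = 0.0153) and in a fit of only the 4 arrays with TGFβ (0.0108). Akr1c13 differed by 0.31 and -0.03, neither called, although the former passed without siKlf4 array 2 (0.56, adjusted p = 0.0126). The upstream windows of Akr1c12 and Akr1c13 were 92.5% identical. Their transcripts were not compared, and signal shared between their probe sets was not tested. Akr1c6, Akr1c20, Akr1c21 and Akr1cl were among the dimmest 30% and gave no call.

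**Figure D3:**
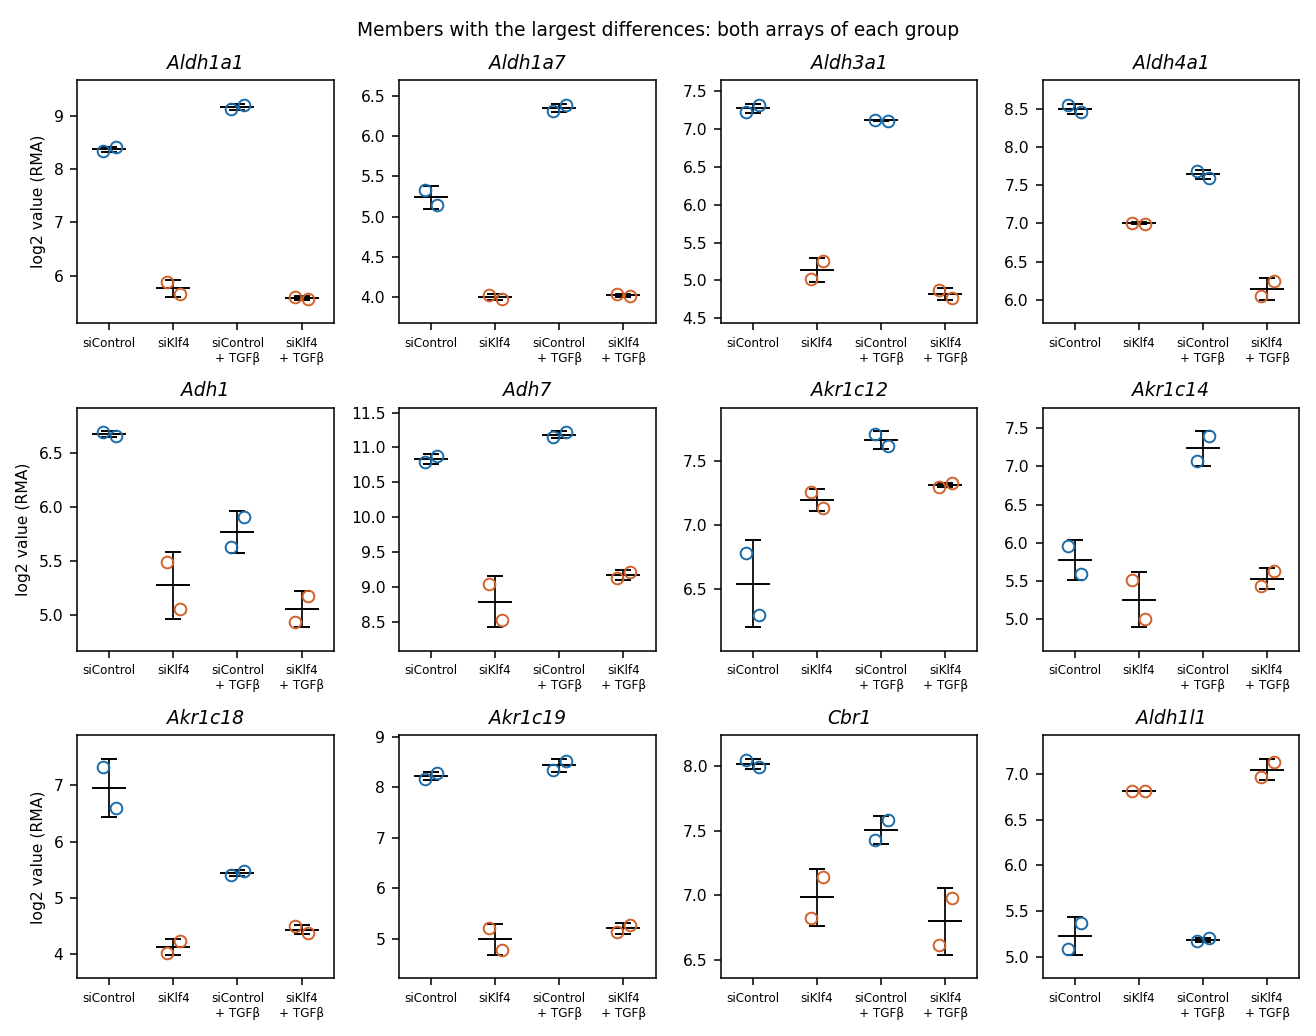
Log2 values on both arrays (circles) of each of the 4 groups for the 12 genes named in full, with the group mean (wide bar) and SD (error bar) and a separate axis range for each gene. The siKlf4 arrays lie below the siControl arrays in both pairs for 10 of the genes, above them for Aldh1l1, and above them without TGFβ but below them with TGFβ for Akr1c12.

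Of the other aldo-keto reductases, Akr1b8 was the only one called between siKlf4 and siControl. This gene, of the aldose reductase group, was higher in siKlf4 by 0.54 ± 0.103 without TGFβ (adjusted p = 0.0047) and by 0.85 ± 0.103 with it (adjusted p = 0.000268), from 8.63 to 9.0 on the siControl arrays to 9.29 to 9.90 on the siKlf4 arrays. Its neighbour Akr1b10 differed by 0.07 and 0.14, neither called. Akr1a1, the general aldehyde reductase, differed by 0.21 (95% interval 0.03 to 0.39, adjusted p = 0.11) and 0.17 (-0.01 to 0.35, adjusted p = 0.175), and both passed with trend and robust options (adjusted p = 0.00446 and 0.0147). Akr1d1, Akr1e1 and Akr7a5 differed by -0.23 to 0.03 and gave no call.

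Carbonyl reductases reduce quinones, prostaglandins and other ketones. Cbr1 read 8.04 and 7.99 in siControl and 6.82 and 7.14 in siKlf4, and with TGFβ 7.42 and 7.58 against 6.61 and 6.98. Its siControl arrays were higher in each pair, and the difference was -1.03 ± 0.141 without TGFβ (adjusted p = 0.000721) and -0.71 ± 0.141 with it (adjusted p = 0.0052). The second was not called in the analysis of variance (adjusted p = 0.0754). Cbr4, which takes part in mitochondrial fatty acid synthesis, was lower by similar amounts in both, -0.63 and -0.67, both called. Cbr3, adjacent to Cbr1, differed by 0.05 without TGFβ and by -0.49 with it (adjusted p = 0.0135), and all its values lay between 3.51 and 4.11, among the dimmest genes. Its call was lost without siControl array 1 with TGFβ (-0.45, adjusted p = 0.0912), without siKlf4 array 2 with TGFβ (-0.43, 0.106) or in the analysis of variance (0.0941). Cbr2 differed by -0.10 and -0.24 and was not called, except with TGFβ in a fit of only those 4 arrays (adjusted p = 0.0486).

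The TGFβ comparison asks how the same genes differ after 2 days of TGFβ. In siControl cells, TGFβ went with higher signals of Aldh1a1, Aldh1a7, Akr1c12, Akr1c13, Akr1c14 and Aldh6a1 and lower signals of Akr1c18, Adh1, Aldh4a1 and Cbr1, 10 of the 46 in all. Of all genes, 12.5% were called, 5.81% higher and 6.65% lower, beside 21.7% of the members. Akr1c14 was 2.76-fold higher (1.46 ± 0.188, adjusted p = 0.00141), Akr1c12 2.19-fold (1.13 ± 0.14, adjusted p = 0.0012), Aldh1a7 2.16-fold (1.11 ± 0.0889, adjusted p = 0.000173) and Aldh1a1 1.74-fold (0.80 ± 0.094, adjusted p = 0.00092). Akr1c18 was 2.85-fold lower (-1.51 ± 0.195, adjusted p = 0.00143), Adh1 1.87-fold (-0.91 ± 0.154, adjusted p = 0.00552) and Aldh4a1 1.81-fold (-0.86 ± 0.0919, adjusted p = 0.000628). Neighbours in the Akr1c run, whose single-array values are given above, therefore went opposite ways with TGFβ.

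Of these 10 calls, those of Aldh1a1, Aldh1a7, Akr1c12 and Aldh4a1 held under every alternative run. Akr1c14 (adjusted p = 0.0584) and Akr1c18 (0.0595) were lost in the analysis of variance alone, and Adh1 there (0.0924) and without siControl array 1 with TGFβ (-0.77, 0.0516). Cbr1 (-0.51, adjusted p = 0.0461) was lost without any 1 of the 4 siControl arrays (0.104 to 0.245), and so was Akr1c13 (0.55, adjusted p = 0.0426, 0.0951 to 0.238 without 1 of them), which was also lost without either siKlf4 array with TGFβ (0.0696). Aldh6a1 (0.38, adjusted p = 0.0395) was lost without any 1 of the 8 arrays (0.0502 to 0.269). The number of members called was 7 and 8 without siControl array 1 and 2, and 6 and 7 without siControl array 1 and 2 with TGFβ.

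In siKlf4 cells, TGFβ went with 4 calls, where 12.9% of all genes were called, 6.01% higher and 6.87% lower, beside 8.7% of the members. Aldh4a1 was lower by nearly the same amount as in siControl (-0.86 ± 0.0919, adjusted p = 0.000416), and Aldh3b3 was lower too (-0.39 ± 0.0827, adjusted p = 0.0141). Akr1b8 (0.52 ± 0.103, adjusted p = 0.0104) and Aldh2 (0.32 ± 0.0752, adjusted p = 0.0236) were higher. Aldh1a1, Aldh1a7, Akr1c12, Akr1c14 and Akr1c18, which were called in siControl, differed by -0.18, 0.02, 0.12, 0.28 and 0.31 and were not called. Of the 4, Aldh4a1 was called under every alternative. The Aldh3b3 call was lost without any 1 of the 4 siKlf4 arrays (adjusted p from 0.0501 to 0.116) and in the mean of its probe sets (-0.27, adjusted p = 0.159). The call of Aldh2 was lost without any 1 of those arrays (0.0584 to 0.152) or without either siControl array with TGFβ (0.0513), and that of Akr1b8 without siKlf4 array 2 (0.0532) or siKlf4 array 1 with TGFβ (0.0973). The count was 7 without siKlf4 array 1, where Adh7 (0.64), Akr1b10 (0.49), Akr1c13 (0.45), Aldh16a1 (-0.47) and Aldh3a1 (-0.43) were called. It was 1 without siKlf4 array 2, and 1 and 2 without siKlf4 array 1 and 2 with TGFβ.

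**Figure D4:**
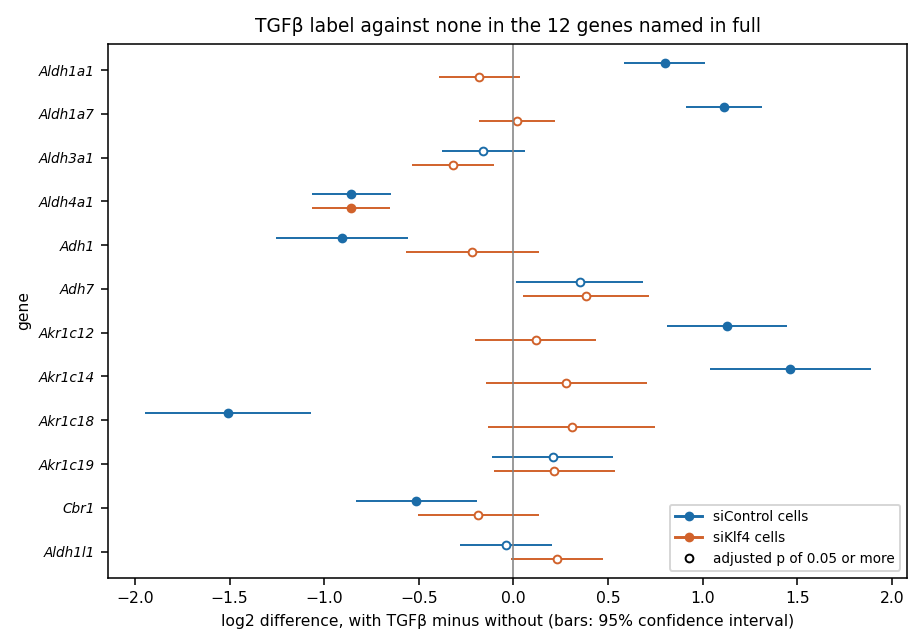
Log2 difference between arrays with and without TGFβ in siControl (blue) and in siKlf4 (orange) for the 12 genes named in full, with 95% confidence intervals and filled points for an adjusted p under 0.05. The blue points spread from -1.51 for Akr1c18 to 1.46 for Akr1c14, while the orange points lie between -0.86 and 0.38, with Aldh4a1 alone filled.

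Whether the siKlf4 difference itself changed with TGFβ was tested as an interaction, the difference with TGFβ minus that without. 4 members were called, where 1.52% of all genes were, 0.547% higher and 0.978% lower. Aldh1a1 (-0.98 ± 0.133, adjusted p = 0.0128), Aldh1a7 (-1.10 ± 0.126, adjusted p = 0.00787) and Akr1c12 (-1.01 ± 0.199, adjusted p = 0.0458) had a more negative difference with TGFβ. Akr1c18 had a less negative one (1.82 ± 0.276, adjusted p = 0.0188). The 4 siKlf4 values of Aldh1a7 (3.98 to 4.03) lay under 4.18 and those of Akr1c18 (4.03 to 4.49) near or under it, where a lower signal with TGFβ could hardly be read. Most of the size of both terms lay in the siControl arrays, which differed with TGFβ by 1.11 for Aldh1a7 and -1.51 for Akr1c18, against 0.02 and 0.31 in siKlf4. The 2 neighbours Aldh1a1 and Aldh1a7 therefore shared the sign, and Akr1c12 and Akr1c18 did not. For Akr1c14 the term was -1.18 ± 0.266 and was not called (adjusted p = 0.0747), and for Adh1 it was 0.69 ± 0.218 (adjusted p = 0.214). Akr1c19, Adh7 and Aldh4a1 had terms of 0.01 (95% interval -0.45 to 0.46), 0.03 (-0.44 to 0.50) and 0.00 (-0.30 to 0.29). The calls did not hold when arrays were left out. Without siControl array 1 or 2 with TGFβ, 1 and 0 of them were called, and without siKlf4 array 1 or 2 with TGFβ, 1 and 0. At the 2 counts of 0 in limma, 9 and 12 members had an unadjusted p under 0.05. Without siKlf4 array 1, 2 were called, and without siControl array 2, 3. Without siKlf4 array 2 the term of Akr1c12 was lost (-1.07, adjusted p = 0.0988) and that of Akr1c14 passed (-1.44, adjusted p = 0.0496).

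The other genes of retinoid metabolism were taken from a list of 33, of which 32 were measured. Without TGFβ, 4 were higher and 6 lower in siKlf4, and with TGFβ 3 were higher and 7 lower, which is 31.2% called in each, beside 19.7% and 24.2% of all genes. Their median difference was -0.01 and -0.08, against 0.00 and -0.03 over all genes. Rbp4, the retinol carrier, differed by -1.95 ± 0.0952 (adjusted p = 2.05e-06) and -2.23 ± 0.0952 (adjusted p = 7.05e-07), 3.85-fold and 4.69-fold lower. Dhrs3, which reduces retinaldehyde back to retinol, differed by -1.23 and -1.29, and Rdh11 by -0.91 and -1.26, all called. In the other direction, Rdh10, which oxidises retinol to retinaldehyde, was higher by 0.87 ± 0.0806 (adjusted p = 7.56e-05) and 1.46 ± 0.0806 (adjusted p = 2.35e-06), and the retinoic acid receptor Rara by 0.54 and 0.75, both called. With TGFβ against none, 3 of the 32 were called in siControl and 7 in siKlf4, which is 9.38% and 21.9%, beside 12.5% and 12.9% of all genes. The count of 7 fell to 3 without siKlf4 array 2 or siKlf4 array 1 with TGFβ, to 1 without siKlf4 array 2 with TGFβ and to 3 in the analysis of variance, and the count of 3 was 5 with trend and robust options.

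The list of genes of the Nrf2 pathway and its targets, which respond to electrophiles and overlap in regulation with several Aldh, Akr and Cbr genes, held 26 genes, 25 of them measured. In siKlf4, 16 were lower and 1 higher without TGFβ, and 14 lower and 2 higher with it, which is 68% and 64% called, beside 19.7% and 24.2% of all genes. The median difference was -0.57 and -0.53. The list takes in Nfe2l2, which encodes Nrf2, and its repressor Keap1, beside the targets. The group mean of Nfe2l2 was 9.25 in siControl and 8.71 in siKlf4, and 9.37 and 8.57 with TGFβ. That of Keap1 was 8.24 and 7.56, and 7.93 and 7.42 with TGFβ, so the repressor was lower along with most of the targets. Gsta4, which conjugates lipid aldehydes to glutathione, differed by -2.03 ± 0.125 and -2.36 ± 0.125, the transporter Abcc2 by -2.15 ± 0.0864 and -1.83 ± 0.0864, Gclc, of glutathione synthesis, by -1.62 ± 0.089 and -1.97 ± 0.089, and the quinone reductase Nqo1 by -1.22 ± 0.0965 and -2.08 ± 0.0965, all called. Hmox1, the heme oxygenase, was higher by 0.50 (adjusted p = 0.00308) and 0.91 (adjusted p = 6.13e-05), and Sqstm1 differed by 0.15, not called, and 0.26 (adjusted p = 0.0407). The Sqstm1 call was lost without any 1 of the 4 arrays with TGFβ (adjusted p from 0.11 to 0.224). TGFβ against none gave 6 calls in siControl and 4 in siKlf4, which is 24% and 16%, beside 12.5% and 12.9% of all genes. The count of 6 fell to 3 without siControl array 1 and to 2 without either siControl array with TGFβ. The count of 4 fell to 2 without any 1 of the 4 arrays with TGFβ, in the fit to the 4 arrays compared and in the analysis of variance, and was 10 with trend and robust options.

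**Figure D5:**
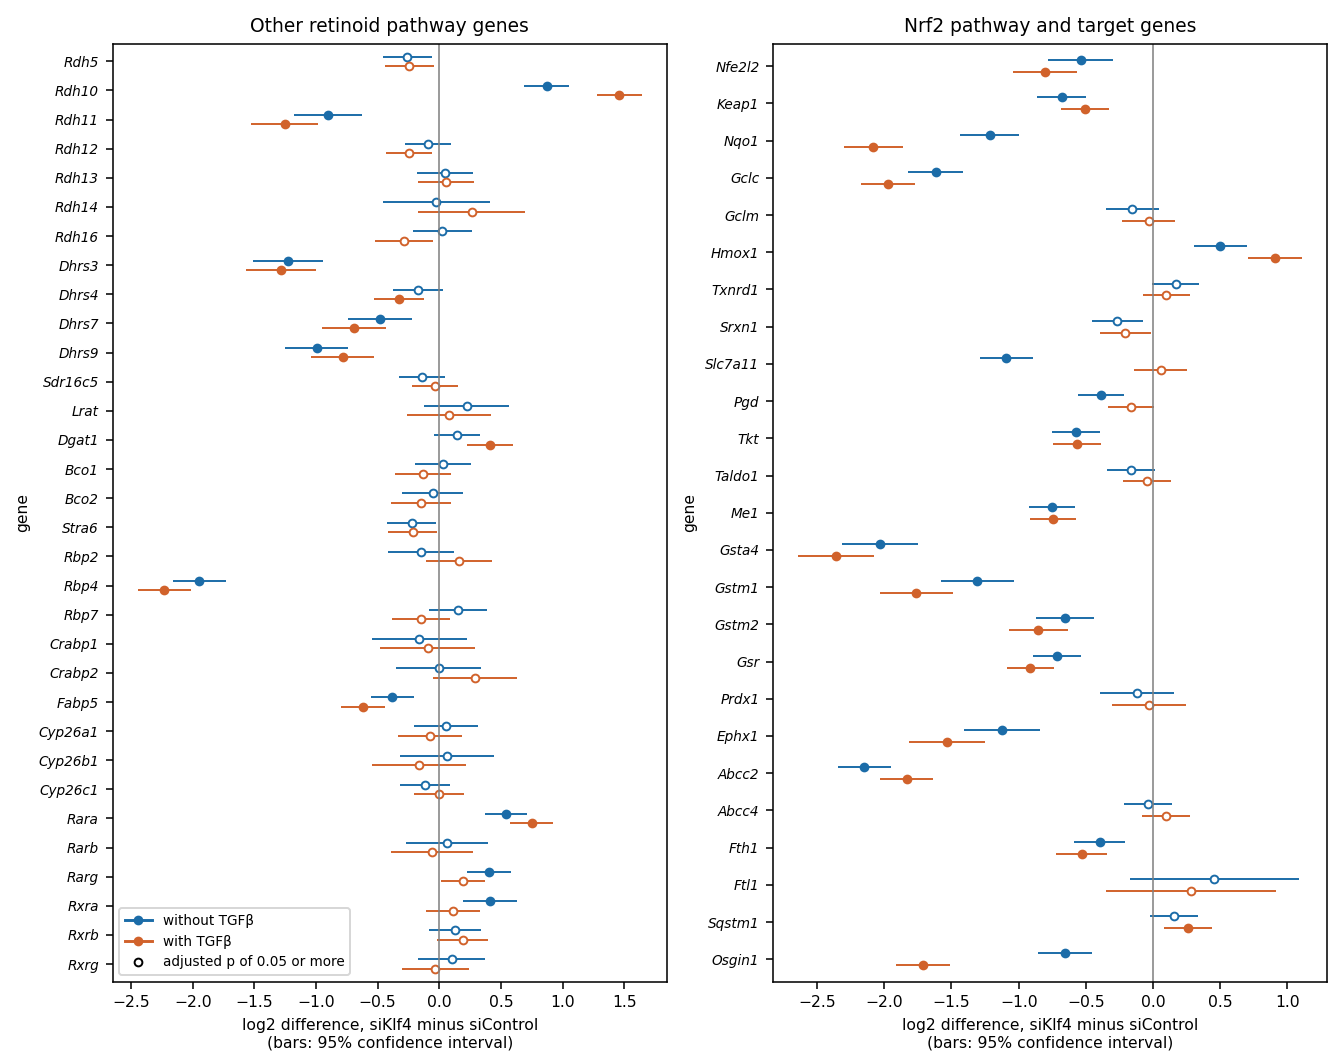
Log2 difference between siKlf4 and siControl, without TGFβ (blue) and with TGFβ (orange), for the 32 measured genes of retinoid metabolism (left) and the 25 measured genes of the Nrf2 list (right), with 95% confidence intervals and filled points for an adjusted p under 0.05. The retinoid genes spread to both sides, from -2.23 for Rbp4 to 1.46 for Rdh10, and the filled points of the Nrf2 list lie left of 0 except for Hmox1 and Sqstm1.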

How the data were processed

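RNA of NMuMG cells was measured on 8 arrays in 4 groups of 2, grouped by the submitters' labels. Raw data had been normalized by the authors with RMA (Robust Multi-Array), and the submitters' notes name oligo 1.14.0. The deposited values are log2 values, 1 per probe set and array, and the base was read from their range. Depth has no meaning here, and the number of arrays limits the precision.

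Of 34760 probe sets, 21640 had 1 symbol in the platform annotation, 1321 several and 11799 none listed. 21553 matched RefSeq by Entrez ID, and 0 symbols changed. The probe set with the highest mean stood for each of 19937 genes. Replicates correlated at 0.992 to 0.995 over all probe sets. No column of values was left unused.

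Differences were fitted in R 4.3.3 with limma 3.58.1 (lmFit, 1 mean per group over 8 arrays, eBayes, 4 residual and 4.93 prior degrees of freedom), with Benjamini-Hochberg adjustment over all genes and a threshold of 0.05. The fit was tested on simulated data. Alternatives were a replicate block, a fit of only the 4 arrays compared, trend and robust options in eBayes, an analysis of variance and quantile normalization. Others were leaving out the dimmest 30% of genes, averaging the probe sets of each gene, and leaving out each array. The analysis of variance was a t-test of each contrast in the same model without moderation, and the study's own procedure was not rerun. A lone remaining array was taken to vary as the other groups did.

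The members and lists were chosen with earlier results of these data known. Members were named in full at a called difference of at least 1 (log2) in a pairwise comparison or a called interaction, and further members because they define a role. Akr1b3 had no value among the members. From each list, up to 4 genes with the largest siKlf4 difference were named, with counter-examples. Nfe2l2 and Keap1 were named as the regulators within the Nrf2 list. G6pdx had no probe set with a single symbol. Upstream sequences came from RefSeq (GRCm38.p6). They were aligned globally with biopython 1.88 (match 1, mismatch -1, gap opening -3, gap extension -0.5).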

Additional observations from a re-analysis of the deposited data

Results flagged for a closer look

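For 8 genes the interaction term, the siKlf4 difference with TGFβ minus that without, was called in limma. The shares called were 8.7% of the members, 12% of the Nrf2 list and 3.12% of the retinoid list, beside 1.52% of all genes. Among the members these were Aldh1a1 (-0.98, adjusted p = 0.0128), Aldh1a7 (-1.10, adjusted p = 0.00787), Akr1c12 (-1.01, adjusted p = 0.0458) and Akr1c18 (1.82, adjusted p = 0.0188), each on the log2 scale. Each of these member calls was lost under some alternative run. Akr1c12 was the only member of the 4 whose siKlf4 difference had opposite signs without and with TGFβ, at 0.66 and -0.35. The siKlf4 values of Aldh1a7 (3.98 to 4.03) lay under 4.18, the level of the dimmest 30% of genes, and those of Akr1c18 (4.03 to 4.49) near or under it.

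Among the Nrf2 list, Nqo1 had a term of -0.87 (adjusted p = 0.0207), Osgin1 one of -1.06 (adjusted p = 0.00807) and Slc7a11 one of 1.15 (adjusted p = 0.00611). Nqo1 read 5.10 and 5.07 in siControl, 3.90 and 3.85 in siKlf4 and, after TGFβ, 5.95 and 6.15 in siControl and 3.88 and 4.05 in siKlf4, so that all its siKlf4 values lay among the dimmest 30% of genes. Slc7a11, the cystine transporter, read 7.27 and 7.35, 6.14 and 6.29, 7.39 and 7.30, and 7.42 and 7.39 in the same order, low in siKlf4 without TGFβ and level in the other 3 groups. Osgin1 read 9.28 and 9.14, 8.63 and 8.48, 8.75 and 8.71, and 6.99 and 7.04, lowest in siKlf4 with TGFβ. Among the retinoid genes, Rdh10 had a term of 0.59 (adjusted p = 0.0439).

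Of these calls outside the members, that of Slc7a11 held without each array in turn. In the analysis of variance, 0 genes of either list were called for the interaction, so Slc7a11 was lost there too. Osgin1 was lost without any 1 of the 4 arrays with TGFβ (adjusted p from 0.0525 to 0.0548), Nqo1 without any array other than siControl array 1 (0.0541 to 0.105), and Rdh10 without any 1 of the 8 arrays (0.0811 to 0.198).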

How the results depend on the processing

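No member's called difference changed sign under any alternative run. Of the members called, 14 of 16 without TGFβ and 15 of 21 with TGFβ (siKlf4 against siControl), 4 of 10 for TGFβ in siControl, 1 of 4 for TGFβ in siKlf4 and 0 of 4 for the interaction held under every alternative. With trend and robust options, the members called were 7 for TGFβ in siKlf4 and 7 for the interaction, the retinoid genes 5 for TGFβ in siControl, and the Nrf2 genes 10 for TGFβ in siKlf4. In the analysis of variance, the members called were 4 for TGFβ in siControl and 0 for the interaction (9 at an unadjusted p under 0.05), the retinoid genes 3 for TGFβ in siKlf4 and 0 for the interaction (5 unadjusted), and the Nrf2 genes 2 for TGFβ in siKlf4 and 0 for the interaction (8 unadjusted). A fit on only the 4 arrays compared called 2 Nrf2 genes for TGFβ in siKlf4. The share of all genes called was taken in the main fit only. A changed count under any alternative, here and elsewhere, therefore cannot be told from a change over all genes.

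With single arrays left out, the members called ranged over 15 to 16, 18 to 22, 6 to 10, 1 to 7 and 0 to 4 for siKlf4 without TGFβ, siKlf4 with TGFβ, TGFβ in siControl, TGFβ in siKlf4 and the interaction. In the same order the retinoid genes ranged over 8 to 10, 8 to 10, 2 to 3, 1 to 8 and 0 to 0, and the Nrf2 genes over 17 to 18, 15 to 16, 2 to 6, 2 to 3 and 1 to 3. The lowest counts of the TGFβ comparisons came without siControl array 1 with TGFβ (6 members), siKlf4 array 2 or siKlf4 array 1 with TGFβ (1 member each), and siKlf4 array 2 with TGFβ (1 retinoid gene).

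The replicate numbers were not shown to pair the arrays throughout. Deviations of same-numbered arrays correlated at 0.382 between siControl and siKlf4 without TGFβ, and at -0.0503 to 0.0383 in the other pairs of groups. What the value of 0.382 rests on was not tested. With the replicate number as a block, 226 of 230 member results kept their call and 4 were gained, namely Aldh16a1 for TGFβ in siKlf4 (adjusted p = 0.0436), Aldh3b1 for TGFβ in siControl (0.0389) and the interaction (0.0494), and Aldh3b2 for siKlf4 with TGFβ (0.049). The retinoid interaction count became 0 (2 unadjusted) with the block. The cause of these changes was not tested. Signal over background is not given per probe set, so for the 14 members within the dimmest 30% of genes a difference may not have been detectable.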
